A study of Homo sapiens with 21 samples.

Results

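The genes described here belong to homologous recombination and the Fanconi anaemia pathway. They were chosen by name, as a list of 38 genes, and every array probe annotated to one of them was collected. A probe was found for 34 of the 38 genes, 61 probes in all, out of 20046 genes with a probe on the array, and the other 4 genes were not analysed here. FANCM, a DNA translocase of the Fanconi pathway, had 1 probe, which lay between 6.66 and 6.92 on a log2 scale whose array median is 6.92, and it did not pass the filter on dim probes. The other 33 genes were tested, each by its brightest probe, among 14872 genes in the KLE arrays and 14270 genes in the control arrays of the cell lines.

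RNA of 21 cultured cell samples was measured on Illumina expression BeadChips, 3 arrays in each of 7 groups. KLE, a human endometrial carcinoma line, carried hairpin 059 or 062 against MSH3, hairpin 543 or 603 against MSH6, or the control hairpin shCTRL. All 5 KLE groups share the line and a short hairpin RNA, and their arrays are lettered A, B and C. HCT116, a colorectal carcinoma line, and MCF10A, a breast epithelial line that does not form tumours, each had 3 arrays labelled only as controls. The labels do not say whether a hairpin group is a pool or a clone, whether the HCT116 and MCF10A controls carry a hairpin, or whether replicates were separate cultures. The p-values therefore measure the spread between these samples, which may be technical.

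Homologous recombination repairs a DNA double-strand break by copying an intact sister chromatid. Nucleases trim the broken ends, the BRCA1 complex and a family of paralogs that includes RAD51C and XRCC2 help the single strand to invade the intact copy, and helicases and nucleases separate the joined molecules at the end. The Fanconi pathway removes crosslinks between the strands: a core complex attaches ubiquitin to the FANCI partner complex, which brings in nucleases and recombination proteins. Mismatch repair, in which MSH3 and MSH6 recognise different mispairs, also restrains recombination between sequences that are not identical.

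MSH6 fell in both of its hairpin groups, by 2.12 on the log2 scale with 543 and by 0.93 with 603 against shCTRL (limma adjusted p = 8.7e-07 and 0.00024). For MSH3, the bright probe differed by -0.04 with 059 and -0.19 with 062 and did not pass, and a dimmer probe by -0.79 and -0.65. KRT5, KRT14 and LAMB3 marked MCF10A, at 11.39, 10.72 and 11.01 on average, and PAX8, SOX17 and EMX2 marked KLE, at 8.91, 9.50 and 11.47. In HCT116 only CDX2, at 8.70, stood at least 1 log2 unit above both other lines, and CDX1, VIL1, CDH17, LGALS4, LGR5 and KRT20 lay near the array median in every line, as did PAX2 and ESR1 in KLE. HOXB6, listed for KLE, was higher in HCT116, at 7.50, than in KLE shCTRL, at 7.01, and EPCAM, listed for HCT116, averaged 12.88 in HCT116, 10.49 in MCF10A and 11.96 in KLE shCTRL. Summed over the 4 measured MCF10A markers, the level was 42.5 to 42.6 in MCF10A arrays, 28.5 to 28.7 in HCT116 and 29.0 to 32.2 in KLE, where LAMB3 averaged 8.52 and ITGB4 9.22 with shCTRL. The KLE arrays of letter A stood apart: after group means were removed, residuals of arrays from different groups correlated across genes with a median r of 0.69 for A with A, and of -0.60 for A with B, against 0.53 for B with C. Genes are not independent replicates, so this r is a description. The letter was a block in every KLE comparison, and results are also given for the arrays of letters B and C alone, an alternative chosen after seeing the data.

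None of the 33 genes passed the test with any hairpin. With hairpin 059 against shCTRL 0 of 33 passed, where 1.45% of all genes did, and 5 had an unadjusted p under 0.05. With 062 the counts were 0 and 3, against 1.3% of all genes, with 543 they were 0 and 2, against 1.06%, and with 603 they were 0 and 3, against 6.84% (limma, Benjamini-Hochberg adjustment over all genes). The median log2 differences of the 33 genes were -0.046 for 059, -0.053 for 062, -0.019 for 543 and -0.016 for 603, beside -0.008, -0.006, -0.001 and 0.003 over all genes. The 4 comparisons share the same 3 shCTRL arrays. Passing with both hairpins of a target in the same direction was seen for 0 of the 33 genes, while 0.343% of all genes did so for MSH3 and 0.652% for MSH6.

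The widest ranges of differences belonged to the checkpoint kinases, from -0.16 to 0.49 with CHEK2 at the top, and to the 6 genes of junction dissolution and cutting, from -0.35 to 0.29, and FANCI lay between -0.30 and -0.05. The 4 genes of the BRCA1 complex and its partners, BRCA1, BARD1, PALB2 and the helicase BRIP1, lay between -0.15 and 0.13 with any hairpin. The 5 paralogs RAD51B, RAD51C, RAD51D, XRCC2 and XRCC3 lay between -0.22 and 0.06, and the 7 tested genes of the Fanconi core and its ubiquitin-conjugating enzyme UBE2T between -0.23 and 0.23. RAD54L and RAD54B lay between -0.15 and 0.18, and the 4 genes of end resection and the RecQ helicases between -0.14 and 0.17. The 95% interval of the difference stayed within 0.5 log2 units of 0 on both sides for 32 of 33 genes with 059, 28 with 062, 30 with 543 and 29 with 603. The half-width of these intervals had a median of 0.21 for 059 and reached 0.53 for XRCC2, whose arrays spread widely.

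**Figure D1:**
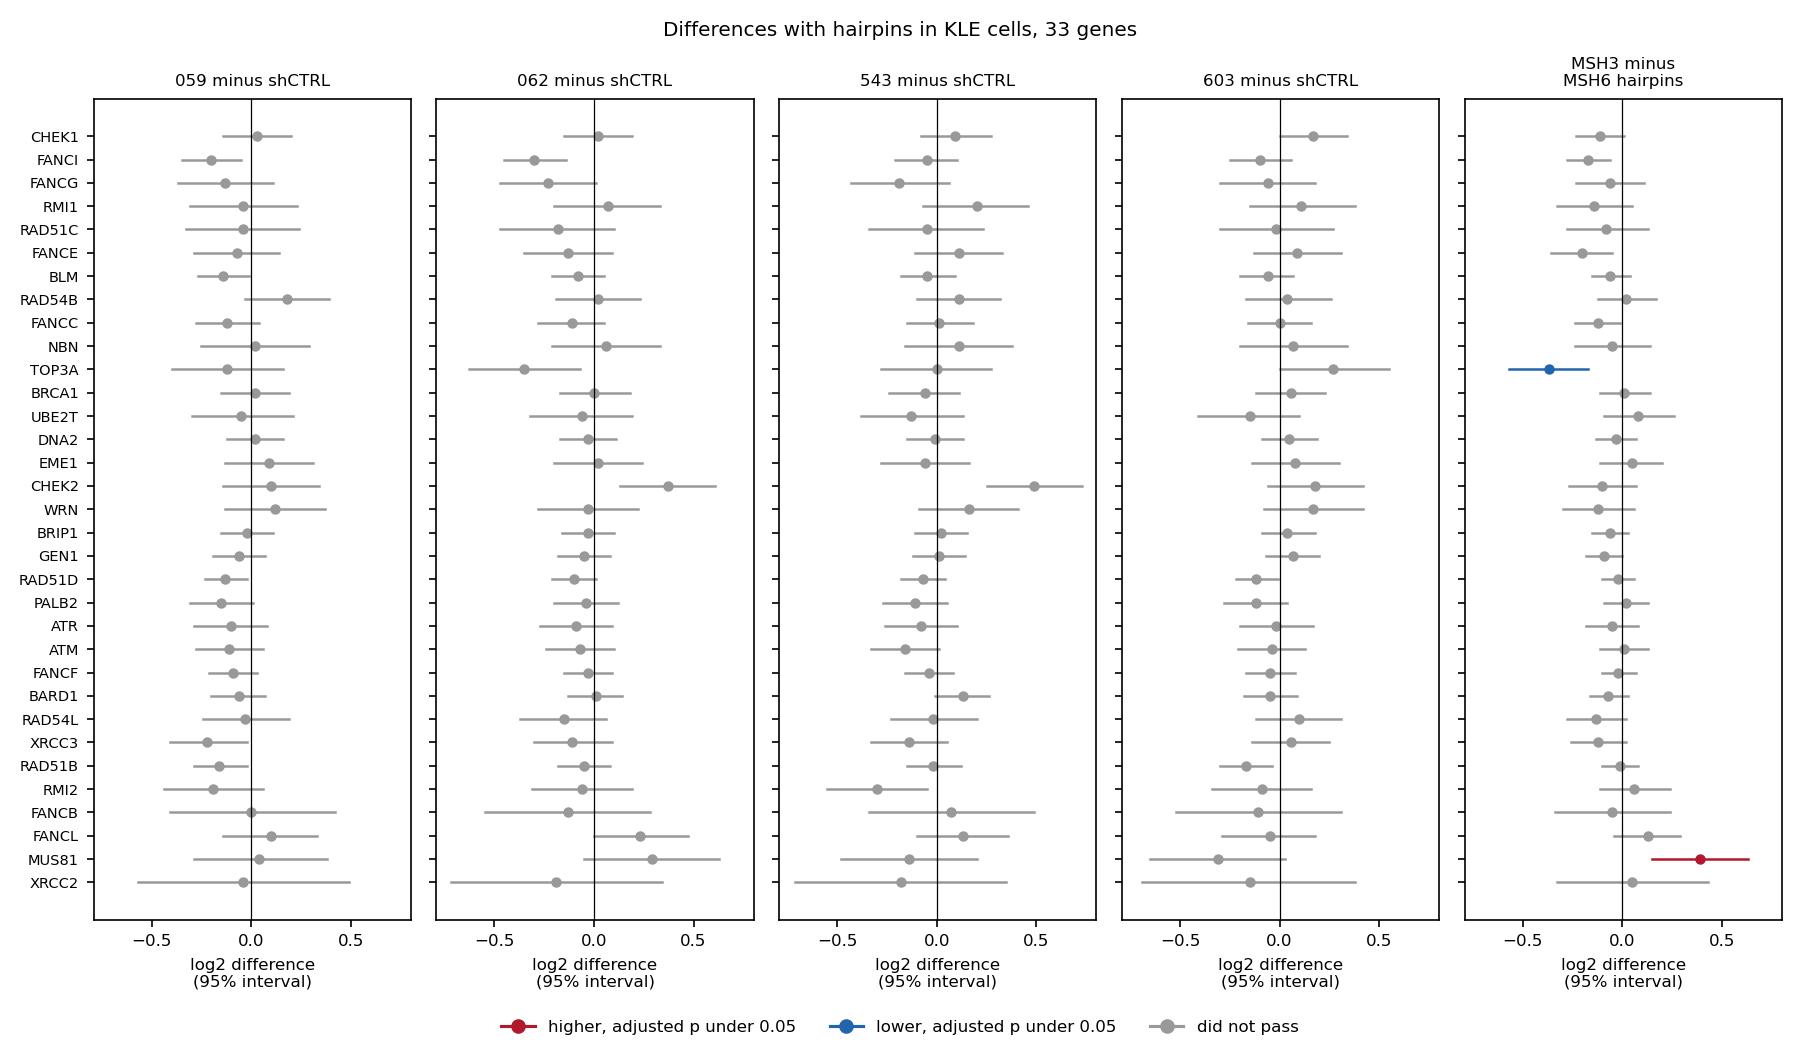
Log2 differences of the 33 genes (points) with their 95% intervals (bars), for each hairpin minus shCTRL and for the MSH3 minus the MSH6 hairpins, 3 arrays per group with the letter as a block. Grey points, which did not pass, fill the 4 hairpin panels, and TOP3A at -0.37 and MUS81 at 0.39 are the coloured points of the last one.

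The gene nearest to passing was CHEK2, the checkpoint kinase that ATM activates at double-strand breaks. Its probe read 8.67, 8.64 and 8.53 with hairpin 543 and 8.34, 8.50 and 8.64 with 062, in the order A, B, C, against 8.31, 8.04 and 8.03 with shCTRL. With 059 it read 8.02, 8.34 and 8.32, and with 603 8.28, 8.40 and 8.24. In letters B and C every hairpin array lay above both shCTRL arrays, while on array A only 543 and 062 lay above shCTRL. The log2 difference was 0.49 for 543 (SE 0.11, limma adjusted p = 0.064) and 0.37 for 062 (SE 0.11, limma adjusted p = 0.14), and neither passed. With letters B and C alone it passed with all 4 hairpins, at 0.30 for 059, 0.53 for 062, 0.55 for 543 and 0.29 for 603, comparisons that share their 2 control arrays. A second CHEK2 probe of similar brightness read 8.39, 8.29 and 8.38 with 543 and 8.25, 8.35 and 8.48 with 062, against 8.30, 8.16 and 8.28 with shCTRL, and its differences were -0.11 for 059, 0.11 for 062, 0.10 for 543 and -0.05 for 603.

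FANCI, which forms the ubiquitinated pair at the centre of the Fanconi pathway, came next. It read 7.95, 7.48 and 7.50 with 062 and 8.09, 7.60 and 7.53 with 059, against 8.10, 7.92 and 7.80 with shCTRL. Within letters B and C all arrays of the MSH3 hairpins were lower than both shCTRL arrays, and in letter A the groups were close. The difference was -0.30 for 062 (SE 0.07, limma adjusted p = 0.066) and -0.20 for 059 (limma adjusted p = 0.21). With letters B and C alone FANCI passed with both MSH3 hairpins, at -0.30 for 059 and -0.37 for 062 (limma adjusted p = 0.021 and 0.0046), and did not pass with the MSH6 hairpins, at -0.09 for 543 and -0.18 for 603.

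Restricting the arrays to letters B and C raised the counts of all genes as well. For 059, 4 of 33 genes passed where 12.2% of all genes did: XRCC3 and FANCI fell and RAD54B and CHEK2 rose. For 062, 8 passed where 16.9% of all genes did: RAD51C, XRCC2, TOP3A, FANCB and FANCI fell, and MUS81, FANCL and CHEK2 rose. For 543 only CHEK2 passed, where 5.53% of all genes did, and for 603 NBN, WRN and CHEK2 rose and MUS81 fell, 4 of 33 where 17.3% of all genes passed. The share of these genes that passed, 12.1%, 24.2%, 3.03% and 12.1% for 059, 062, 543 and 603, was close to the share of all genes for 059 and 543, lower for 603 and higher for 062, and the differences in share were not tested. XRCC2, one of the paralogs, fell furthest with 062 in this setting, by 0.61. Its letters ran the other way in that group: it read 10.68 on array A and 10.07 and 10.16 on B and C, against 10.04 on array A and 10.68 and 10.76 on B and C with shCTRL.

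MSH3 and MSH6 hairpins were compared directly, each target as the mean of its hairpins, which leaves the shared control out. Here 2 of 33 genes passed, 6.06%, where 8.9% of all genes did. TOP3A, the topoisomerase that dissolves double Holliday junctions together with BLM and the RMI proteins, was lower with the MSH3 hairpins. MUS81, the nuclease subunit that cuts such junctions, was higher. The median difference of the 33 genes was -0.048 and that of all genes -0.008.

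In the order A, B, C, TOP3A read 8.02, 7.66 and 7.72 with 059 and 7.78, 7.49 and 7.45 with 062, against 8.08, 7.79 and 7.87 with 543 and 8.69, 7.74 and 8.15 with 603. The MSH3 hairpins were lower within each letter, and the groups overlapped across letters since letter A was the highest array of each group. The difference was -0.37 (SE 0.089, 0.774 of the MSH6 level, limma adjusted p = 0.026), and within the letters it was -0.49 in A, -0.19 in B and -0.43 in C. Hairpins 062 and 603 differed from shCTRL by -0.35 and 0.27, while 059 and 543 differed by -0.12 and 0.00. A second, dimmer TOP3A probe differed by -0.04, and the mean of both probes by -0.21 (limma adjusted p = 0.054).

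MUS81 read 8.10, 9.0 and 9.19 with 059 and 8.21, 9.45 and 9.37 with 062, against 8.25, 8.76 and 8.75 with 543 and 8.18, 8.66 and 8.38 with 603. On arrays B and C all MSH3 hairpins lay above all MSH6 hairpins, and on array A all 4 groups lay together near the low end. The difference was 0.39 (SE 0.11, 1.31 times the MSH6 level, limma adjusted p = 0.047), and within the letters it was -0.06 in A, 0.52 in B and 0.72 in C. With letters B and C alone MUS81 differed by 0.62 (limma adjusted p = 4.6e-05) and TOP3A by -0.31 (limma adjusted p = 0.016), and 7 of 33 genes passed where 17.1% of all genes did. The others were FANCL, higher, and RAD51C, XRCC3, FANCB and FANCI, lower with the MSH3 hairpins.

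Both calls depended on the block and on single arrays. Without the letter block neither passed (limma adjusted p = 0.25 for TOP3A and 0.6 for MUS81), where 2.08% of all genes did, and none passed with any hairpin, where 0.397% of all genes did for 059, 0.343% for 062, 0.323% for 543 and 2.17% for 603. Leaving out 1 array at a time, TOP3A passed in 6 of 12 fits and MUS81 in 4 of 12, with adjusted p up to 0.071 and 0.12. The hairpins of one target did not differ from each other at this threshold for any of the 33 genes. For 062 against 059, 0 of 33 passed and 1 had an unadjusted p under 0.05, where 1.51% of all genes passed (with letters B and C alone 4 and 13.3%), and for 603 against 543 0 passed and 4 had an unadjusted p under 0.05, where 3.64% of all genes passed.

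**Figure D2:**
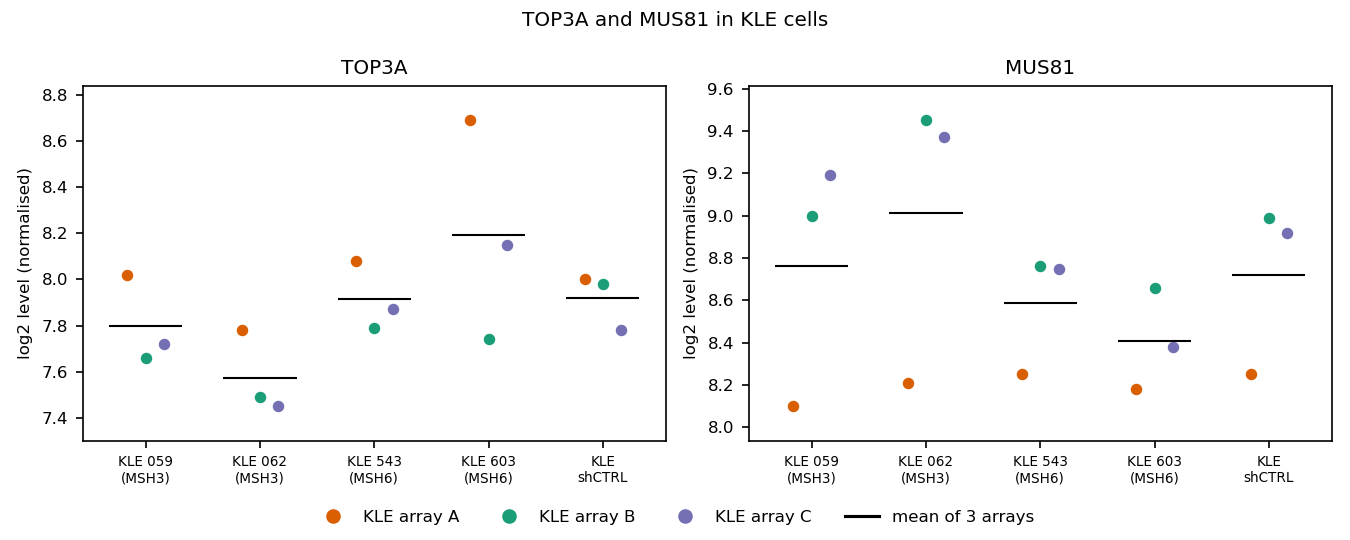
Log2 levels of TOP3A and MUS81 on each KLE array (points, coloured by letter) with group means (lines, 3 arrays each). Letter A is the highest TOP3A array and the lowest MUS81 array of every group, from 8.10 to 8.25 for MUS81.

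Among other genes of these pathways, 0 of 57 passed with 059 or 543, and 1 passed with each other hairpin: SFR1, a recombination factor, rose with 062 (0.43, limma adjusted p = 0.022) and MAD2L2, a shieldin and polymerase zeta subunit, fell with 603 (-0.33, limma adjusted p = 0.049). Between MSH3 and MSH6 hairpins 8 of 57 passed, 4 in each direction, where 8.9% of all genes did. The DNA damage mediator MDC1 (-0.31), the resection nuclease EXO1 (-0.32), the recombination antagonist PARPBP (-0.27) and the replication fork protein TIMELESS (-0.27) were lower with the MSH3 hairpins, and the Fanconi core partner FAAP20 (0.46) was higher. In the same comparison 9 of 36 replication genes driven by E2F and 6 of 32 genes of G2 and mitosis passed, all lower with the MSH3 hairpins, and their medians were -0.149 and -0.148. Without the letter block 1 of 57, 3 of 36 and 2 of 32 passed in these lists. The part of these shifts in the TOP3A and MUS81 differences was not tested.

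The largest differences of the recombination and Fanconi genes lay between cell lines. In HCT116 against KLE shCTRL 23 of 33 genes passed, 17 higher and 6 lower, where 54.4% of all genes passed, 29.3% higher and 25.1% lower. In MCF10A against KLE shCTRL 18 passed, 9 in each direction, where 52.7% of all genes passed, 27% higher and 25.7% lower. In HCT116 against MCF10A 18 passed, 17 higher and 1 lower, where 41.5% of all genes passed, 22.6% higher and 18.9% lower. The median differences of the 33 genes were 0.236, 0.034 and 0.272, beside 0.026, 0.012 and 0.017 over all genes. With median scaling in place of quantile normalization the split of MCF10A against KLE became 5 higher and 9 lower, where 5984 of 14270 genes passed. The HCT116 and MCF10A comparisons with KLE share the 3 shCTRL arrays. In whole-culture RNA, fewer cells in S phase and less RNA per cell cannot be told apart.

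**Figure D3:**
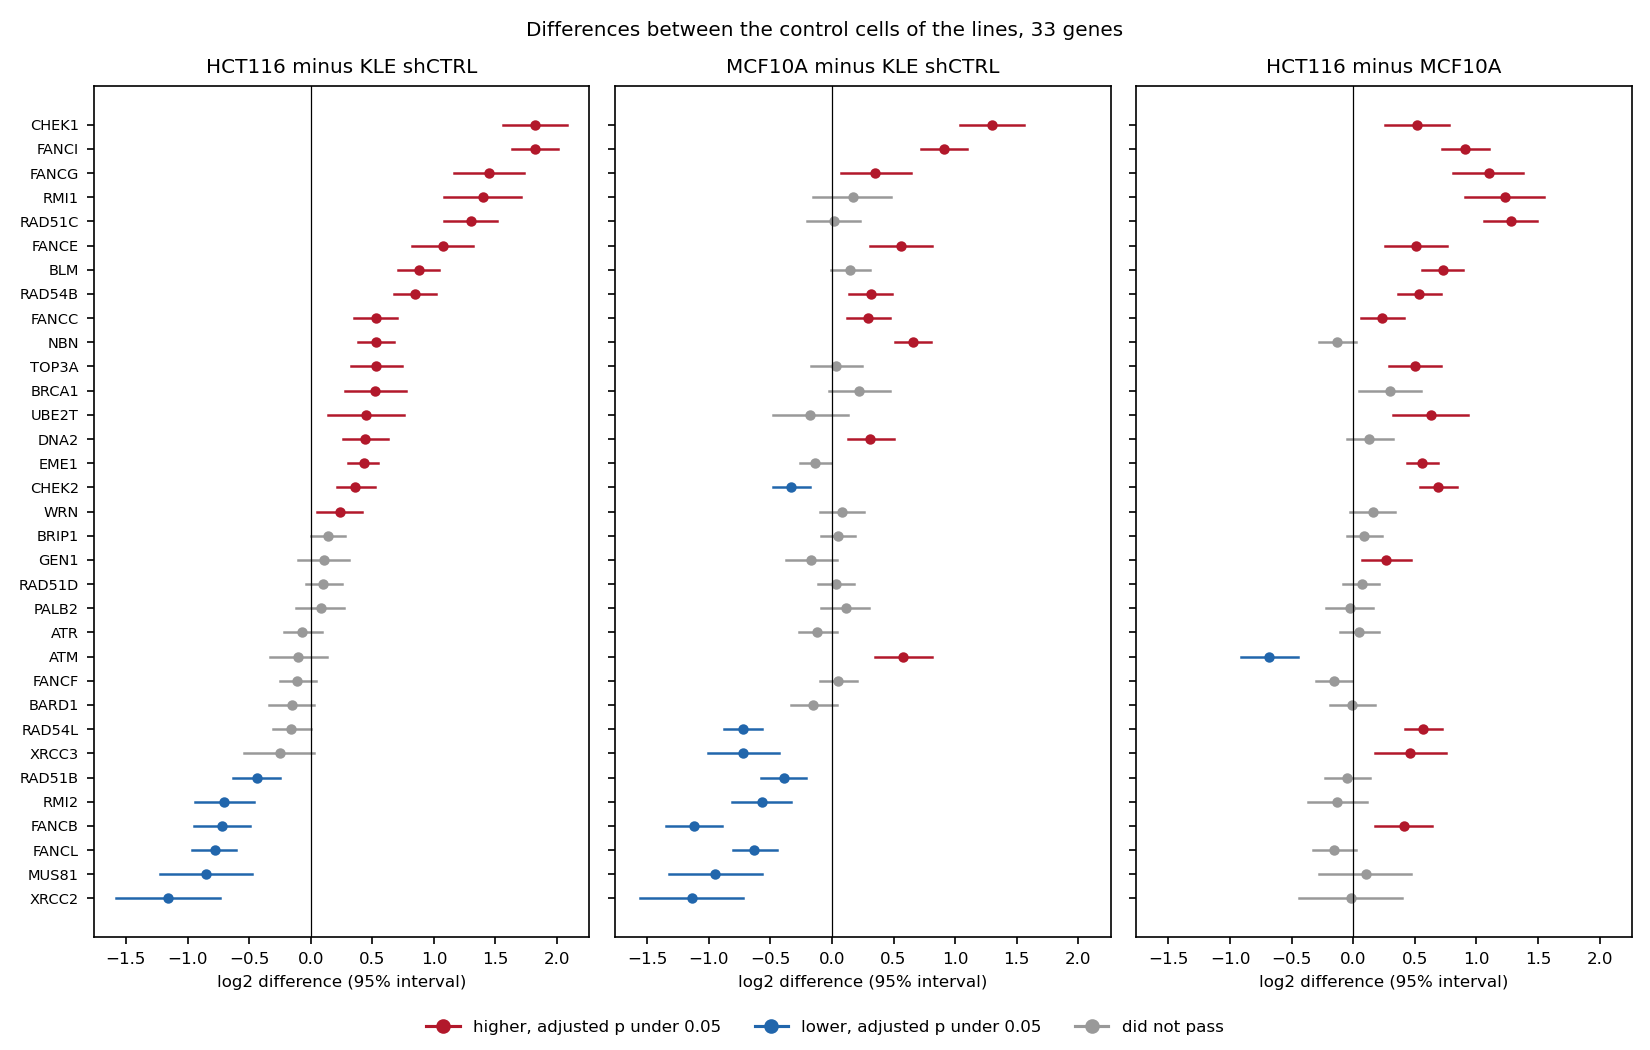
Log2 differences of the 33 genes (points) with their 95% intervals (bars) between the control arrays of the lines, 3 per line. CHEK1 and FANCI, both at 1.82, lead the HCT116 minus KLE panel, XRCC2 at -1.16 ends it, and ATM at -0.68 is the single lower gene of the HCT116 minus MCF10A panel.

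Of the 4 genes of the BRCA1 complex and its partners, only BRCA1 passed, and only in HCT116 against KLE, where 54.4% of all genes did. BRCA1, the ubiquitin ligase subunit that promotes resection, read 8.25, 8.19 and 8.26 in HCT116 and 7.84, 7.95 and 8.0 in MCF10A, against 7.99, 7.58 and 7.56 in KLE shCTRL. It was higher in HCT116 than in KLE by 0.52 (SE 0.11, limma adjusted p = 0.0026), and a second probe gave 0.52. PALB2, which bridges the BRCA proteins, differed by 0.08, BARD1, the partner of BRCA1, by -0.15 and BRIP1 by 0.14, and none of them passed in any pair of lines. BRIP1 lay near the array median on every array, at 7.03, 7.13 and 6.99 in HCT116, 6.99, 6.98 and 6.90 in MCF10A and 6.94, 6.84 and 6.93 in KLE shCTRL, where a difference is hard to see.

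The paralogs, which work in complexes on single-stranded DNA, differed in opposite directions. RAD51C, the subunit shared by both paralog complexes, read 10.32, 10.51 and 10.41 in HCT116 and 9.07, 9.07 and 9.27 in MCF10A, against 8.94, 9.16 and 9.25 in KLE shCTRL. All HCT116 arrays stood more than 1 log2 unit above all MCF10A and KLE shCTRL arrays. The differences were 1.30 against KLE (SE 0.096, limma adjusted p = 3.2e-06) and 1.28 against MCF10A (SE 0.096, limma adjusted p = 5.2e-06). The other bright RAD51C probes gave 1.57 and 1.52 against KLE. In MCF10A against KLE they gave 0.65 and 0.62 where the probe used gave 0.02.

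XRCC2 ran the other way. It read 9.28, 9.60 and 9.13 in HCT116 and 9.33, 9.46 and 9.29 in MCF10A, against 10.04, 10.68 and 10.76 in KLE shCTRL. No array of either line reached the lowest KLE array, and the differences were -1.16 for HCT116 and -1.14 for MCF10A (SE 0.19 each, limma adjusted p = 0.00055 and 0.00068). A second XRCC2 probe, close to the array median, gave 0.14 and 0.03. XRCC3, the partner of RAD51C, read 8.02, 7.99 and 8.01 in HCT116 and 7.57, 7.49 and 7.57 in MCF10A, against 7.92, 8.51 and 8.35 in KLE shCTRL. In MCF10A it differed from KLE by -0.72 (SE 0.13, limma adjusted p = 0.0011), and the HCT116 difference of -0.25 did not pass. HCT116 exceeded MCF10A by 0.46, a call lost in 2 of the fits without 1 array. RAD51B fell by 0.44 in HCT116 and by 0.39 in MCF10A against KLE, near the array median, and RAD51D did not pass in any pair.

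RAD54L and RAD54B are motor proteins that act when the strand invades the intact copy. RAD54L read 8.42, 8.40 and 8.51 in HCT116 and 7.87, 7.99 and 7.77 in MCF10A, against 8.61, 8.59 and 8.60 in KLE shCTRL. MCF10A was lowest without overlap, at -0.72 against KLE (SE 0.067, limma adjusted p = 1.6e-05), while the HCT116 difference of -0.16 did not pass. RAD54B was higher in both lines than in KLE, by 0.85 in HCT116 and 0.32 in MCF10A.

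All 4 genes of end resection and the RecQ helicases were higher in HCT116 than in KLE, where 29.3% of all genes were. BLM, the helicase that unwinds DNA in resection and junction dissolution, read 7.89, 8.03 and 8.06 in HCT116 and 7.37, 7.28 and 7.16 in MCF10A, against 7.08, 7.13 and 7.15 in KLE shCTRL. HCT116 stood above both lines, by 0.88 against KLE (SE 0.073, limma adjusted p = 7.3e-06) and by 0.73 against MCF10A (SE 0.073, limma adjusted p = 3.7e-05). NBN, the break sensor of the MRN complex, read 8.98, 9.10 and 9.13 in HCT116 and 9.24, 9.22 and 9.13 in MCF10A, against 8.57, 8.46 and 8.59 in KLE shCTRL. KLE was lowest without overlap, and NBN was higher by 0.53 in HCT116 and 0.66 in MCF10A (SE 0.066 each, limma adjusted p = 0.00011 and 2.7e-05). DNA2, a resection nuclease and helicase, was higher in HCT116 by 0.44 and in MCF10A by 0.31. WRN was higher in HCT116 by 0.24, and a second, dimmer WRN probe gave 0.03. The WRN call was lost in 8 of 13 alternatives, 4 of them fits without 1 array.

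Among the proteins that resolve joined molecules, the subunits of the BLM dissolution complex differed in opposite directions. RMI1, its scaffold, read 9.78, 9.79 and 9.98 in HCT116 and 8.69, 8.68 and 8.49 in MCF10A, against 8.80, 8.21 and 8.34 in KLE shCTRL. It was higher in HCT116 by 1.40 against KLE (SE 0.14, limma adjusted p = 2.6e-05) and by 1.23 against MCF10A (SE 0.14, limma adjusted p = 8.8e-05), and a second probe gave 0.95 and 0.99. RMI2, the partner of RMI1, read 7.89, 7.81 and 7.80 in HCT116 and 7.97, 7.88 and 8.05 in MCF10A, against 8.59, 8.73 and 8.28 in KLE shCTRL. Both lines were below KLE without overlap, with differences of -0.70 for HCT116 and -0.57 for MCF10A (SE 0.11 each, limma adjusted p = 4e-04 and 0.0016). TOP3A was higher in HCT116 by 0.53 against KLE, and its dimmer probe gave 0.05.

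MUS81 read 7.88, 7.85 and 7.88 in HCT116 and 7.72, 7.85 and 7.75 in MCF10A, against 8.25, 8.99 and 8.92 in KLE shCTRL. All KLE arrays were above both lines, with array A closest to them, and the differences were -0.85 for HCT116 and -0.95 for MCF10A (SE 0.17 each, limma adjusted p = 0.0018 and 0.00099). EME1, the partner of MUS81, was higher in HCT116 by 0.43 against KLE and by 0.56 against MCF10A. The junction nuclease GEN1 passed only between HCT116 and MCF10A, at 0.27. It lost the call in 7 of 13 alternatives, 5 of them fits without 1 array.

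Of the 7 tested genes of the Fanconi core and UBE2T, 4 were higher and 2 lower in HCT116 than in KLE, where 29.3% and 25.1% of all genes were. In MCF10A against KLE 3 were higher and 2 lower, where 27% and 25.7% of all genes were. In HCT116 against MCF10A 5 were higher, where 22.6% of all genes were. FANCG, an adaptor of the core complex, read 9.62, 9.42 and 9.74 in HCT116 and 8.54, 8.56 and 8.38 in MCF10A, against 8.42, 7.98 and 8.04 in KLE shCTRL. HCT116 was far above both lines, by 1.45 against KLE (SE 0.13, limma adjusted p = 1e-05) and by 1.10 against MCF10A (SE 0.13, limma adjusted p = 9.1e-05). FANCE, which binds the substrate pair, read 9.22, 9.01 and 9.31 in HCT116 and 8.68, 8.83 and 8.50 in MCF10A, against 8.26, 8.03 and 8.03 in KLE shCTRL. The control arrays were ordered HCT116, MCF10A, KLE shCTRL without overlap, while KLE array A read 8.64 with 543 and 8.75 with 603, within the MCF10A range. FANCE was higher than in KLE shCTRL by 1.07 in HCT116 and by 0.56 in MCF10A (SE 0.11 each, limma adjusted p = 3e-05 and 0.0021).

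FANCB, an X-linked core subunit, and FANCL, the ubiquitin ligase of the core, ran the other way. FANCB read 7.62, 7.68 and 7.32 in HCT116 and 7.10, 7.06 and 7.24 in MCF10A, against 8.15, 8.30 and 8.33 in KLE shCTRL. FANCL read 8.14, 7.95 and 8.12 in HCT116 and 8.15, 8.29 and 8.24 in MCF10A, against 8.81, 8.96 and 8.78 in KLE shCTRL. KLE shCTRL was highest without overlap for both genes, while FANCB read 7.62 on KLE array A with 603, within the HCT116 range. FANCB differed by -0.72 in HCT116 and -1.12 in MCF10A (SE 0.10 each, limma adjusted p = 0.00025 and 1.3e-05), and its second probe gave -0.09 and -0.38. FANCL differed by -0.78 and -0.63 (SE 0.077 each, limma adjusted p = 2.3e-05 and 0.00011), and its second probe, near the array median, gave -0.08 and -0.07.

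FANCI read 9.71, 9.73 and 9.84 in HCT116 and 8.90, 8.89 and 8.77 in MCF10A, against 8.10, 7.92 and 7.80 in KLE shCTRL. The 3 lines formed 3 separate steps: FANCI was higher by 1.82 in HCT116 and by 0.91 in MCF10A than in KLE (SE 0.083 each, limma adjusted p = 1.3e-07 and 1.4e-05), and by 0.91 in HCT116 than in MCF10A (limma adjusted p = 2e-05). FANCC, a core subunit, was higher in both lines than in KLE, by 0.53 and 0.29, and higher in HCT116 than in MCF10A by 0.23. That last call was lost in 8 of 13 alternatives, 5 of them fits without 1 array. The FANCG difference of 0.35 between MCF10A and KLE was lost in 7 of 13 alternatives, 4 of them such fits. UBE2T was higher in HCT116 by 0.45 against KLE and 0.63 against MCF10A, and FANCF did not pass in any pair.

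CHEK1, the kinase that ATR activates at stalled forks, read 9.43, 9.24 and 9.59 in HCT116 and 8.92, 8.92 and 8.87 in MCF10A, against 7.79, 7.37 and 7.65 in KLE shCTRL. It was 3.53 times as high in HCT116 and 2.47 times as high in MCF10A as in KLE, with differences of 1.82 and 1.30 (SE 0.12 each, limma adjusted p = 1.2e-06 and 1.2e-05). ATM, the kinase that responds to double-strand breaks, read 8.17, 8.02 and 8.09 in HCT116 and 8.68, 8.91 and 8.74 in MCF10A, against 8.41, 8.08 and 8.09 in KLE shCTRL. MCF10A was highest without overlap: ATM was lower in HCT116 than in MCF10A (difference -0.68, SE 0.10, limma adjusted p = 0.00046) and higher in MCF10A than in KLE by 0.58 (SE 0.10, limma adjusted p = 0.00095), and a second probe gave -0.75 and 0.79. CHEK2 was higher in HCT116 by 0.36 against KLE and lower in MCF10A than in KLE (difference -0.33), and ATR, near the array median, did not pass in any pair.

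**Figure D4:**
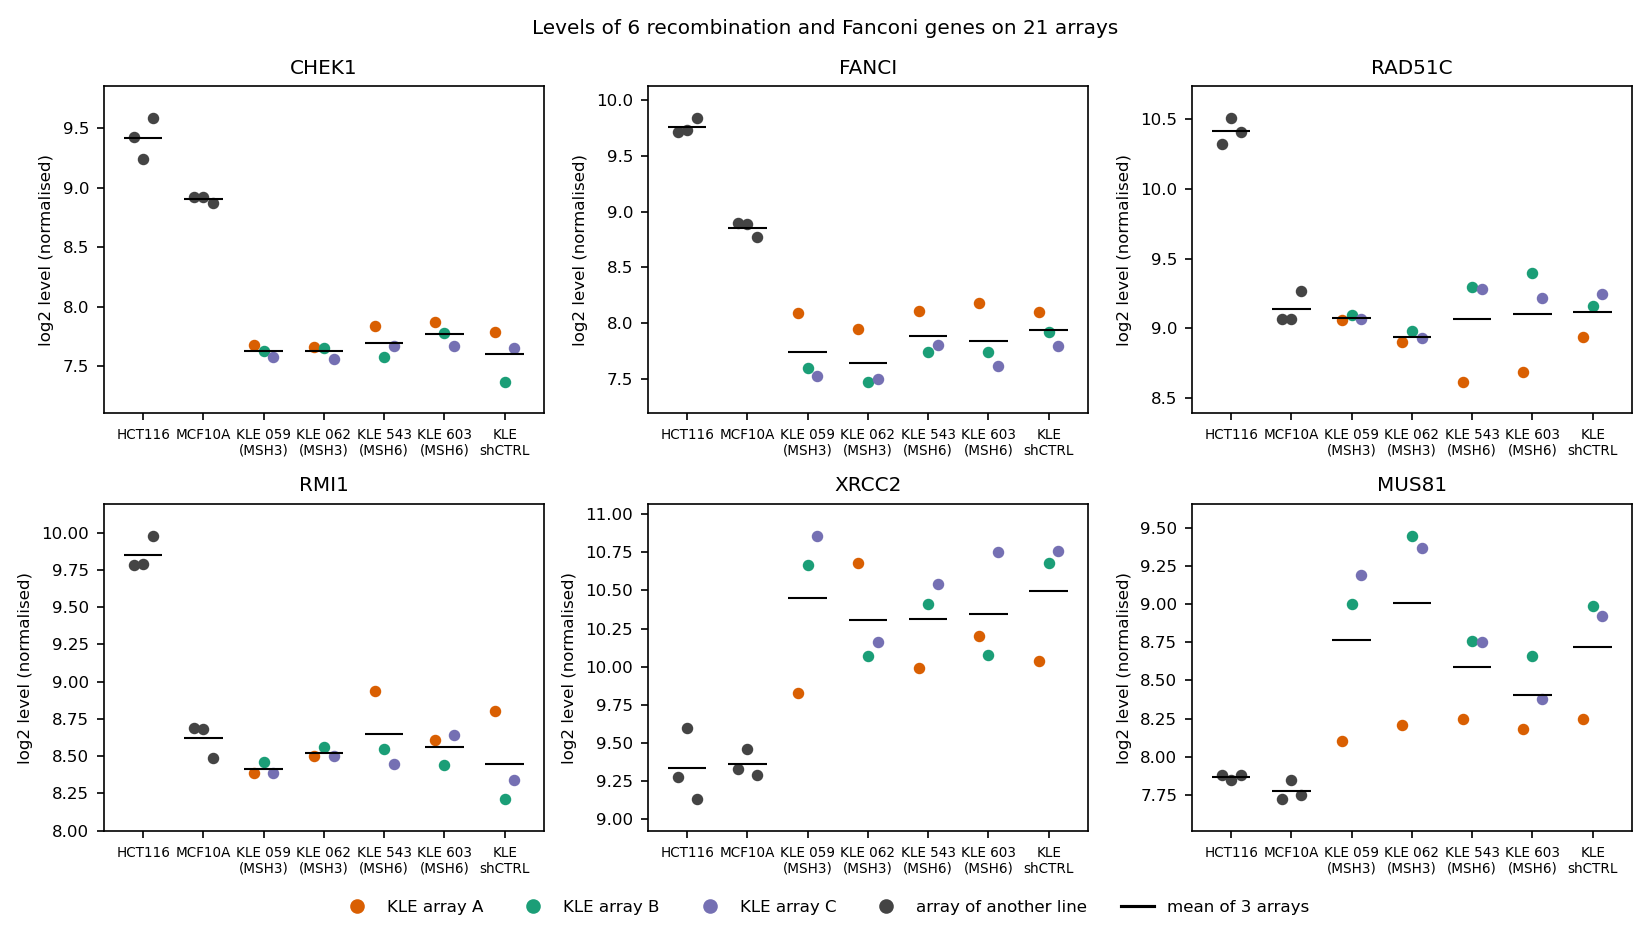
Log2 levels of CHEK1, FANCI, RAD51C, RMI1, XRCC2 and MUS81 on all 21 arrays (points, KLE arrays coloured by letter) with group means (lines, 3 arrays each). HCT116 is highest for the first 4 genes and both other lines lie below KLE for XRCC2 and MUS81, while the 5 KLE groups overlap.

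Proliferation genes differed between the lines in the same comparisons. Over all genes, 29.3% were higher and 25.1% lower in HCT116 than in KLE, and 22.6% and 18.9% in HCT116 than in MCF10A. In MCF10A against KLE the shares were 27% and 25.7%. Of 37 replication genes driven by E2F, 28 were higher and 1 lower in HCT116 than in KLE, 31 were higher and 1 lower in HCT116 than in MCF10A, and 9 were higher and 7 lower in MCF10A than in KLE, with medians of 0.761, 0.738 and 0.075. Of 32 genes of G2 and mitosis, 15 were higher and 5 lower in HCT116 than in KLE, 20 higher and 2 lower in HCT116 than in MCF10A, and 4 higher and 15 lower in MCF10A than in KLE. Their part in the recombination and Fanconi differences was not tested. Of 56 other genes of the pathways, 23 were higher and 14 lower in HCT116 than in KLE, 23 higher and 6 lower in HCT116 than in MCF10A, and 13 higher and 17 lower in MCF10A than in KLE. Those with the lowest adjusted p in HCT116 against KLE were SFR1 (1.81), the fork protection protein TIPIN (1.40), the helicase RECQL4 (0.92), the FANCM partner CENPX (1.59) and the ubiquitin ligase RFWD3 (1.52), all higher.

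In HCT116 against MCF10A, CENPX (2.12), SFR1 (1.24), TIPIN (1.22), RECQL4 (0.90) and RPA2 (1.03), a subunit of the protein that coats single-stranded DNA, were higher. In MCF10A against KLE, the lowest adjusted p were those of RPA2 (-1.51) and MAD2L2 (-1.24), lower, and of the anti-recombination helicase FBH1 (1.10), the nuclease subunit ERCC1 (1.12) and the deubiquitinase partner WDR48 (0.53), higher.

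Many genes of DNA replication and repair carry a site for E2F, the family of factors that switches on S phase genes, so promoters were read for the letters TTCCCGC on either strand (GCGGGAA on the other). RefSeq windows on GRCh38.p14, from 250 bases before to 50 bases after an annotated transcript start, were held for 28 of the 34 genes, and the first window listed for a gene was read. Its start was the outermost start of the gene for 21 of the 28 and lay inside the annotated gene for 7, by 1093 bases in CHEK1 and 759 in MUS81. The letters occurred in 12 of the 28 promoters, 42.9%, against 6.56% of 27305 promoters in the table, by the first window of each gene, and 48.5% of 33 replication genes driven by E2F. They occurred in 5 of 12 genes that were higher in HCT116 than in KLE, in 2 of 5 that were lower and in 5 of 10 that did not pass. With every listed window counted, 14 of the 28 genes, 50%, held the letters, against 7.82% of all genes. A match is a description of the letters, not a bound site. The windows below are those of the 2 genes that passed between targets and of 4 genes that differed between the lines, with the match in capitals. These 4 are not the largest differences with a window. RMI1 and RAD51C, with no match in their first windows, differed more than BLM between HCT116 and KLE.
TOP3A: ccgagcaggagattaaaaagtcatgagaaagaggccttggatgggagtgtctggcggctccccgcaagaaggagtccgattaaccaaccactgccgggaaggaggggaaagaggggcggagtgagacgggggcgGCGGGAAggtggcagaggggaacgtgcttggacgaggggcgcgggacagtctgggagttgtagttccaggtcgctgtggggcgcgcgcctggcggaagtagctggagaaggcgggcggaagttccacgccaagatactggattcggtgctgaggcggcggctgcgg
MUS81: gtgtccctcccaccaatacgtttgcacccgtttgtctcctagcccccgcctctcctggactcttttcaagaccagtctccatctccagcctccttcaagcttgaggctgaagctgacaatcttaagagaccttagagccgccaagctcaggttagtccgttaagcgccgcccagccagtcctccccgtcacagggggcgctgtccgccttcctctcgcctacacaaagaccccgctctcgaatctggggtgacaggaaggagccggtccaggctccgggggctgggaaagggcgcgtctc
FANCG: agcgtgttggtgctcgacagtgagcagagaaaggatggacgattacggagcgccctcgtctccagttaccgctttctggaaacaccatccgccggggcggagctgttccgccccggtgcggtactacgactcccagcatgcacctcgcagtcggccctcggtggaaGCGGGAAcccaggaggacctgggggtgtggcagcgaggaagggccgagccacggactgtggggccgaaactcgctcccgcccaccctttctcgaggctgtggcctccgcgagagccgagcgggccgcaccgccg
BLM: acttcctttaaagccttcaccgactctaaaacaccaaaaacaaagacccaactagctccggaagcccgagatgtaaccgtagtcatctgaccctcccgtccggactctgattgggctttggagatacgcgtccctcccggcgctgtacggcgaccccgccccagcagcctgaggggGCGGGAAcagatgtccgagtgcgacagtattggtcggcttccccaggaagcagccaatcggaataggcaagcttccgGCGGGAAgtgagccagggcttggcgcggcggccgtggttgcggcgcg
CHEK1: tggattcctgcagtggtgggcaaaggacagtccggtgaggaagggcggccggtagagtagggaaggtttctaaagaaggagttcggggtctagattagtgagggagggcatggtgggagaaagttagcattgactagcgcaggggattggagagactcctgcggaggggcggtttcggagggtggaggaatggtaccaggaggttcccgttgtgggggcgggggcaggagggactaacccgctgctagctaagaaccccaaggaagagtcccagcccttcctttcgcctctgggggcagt
XRCC2: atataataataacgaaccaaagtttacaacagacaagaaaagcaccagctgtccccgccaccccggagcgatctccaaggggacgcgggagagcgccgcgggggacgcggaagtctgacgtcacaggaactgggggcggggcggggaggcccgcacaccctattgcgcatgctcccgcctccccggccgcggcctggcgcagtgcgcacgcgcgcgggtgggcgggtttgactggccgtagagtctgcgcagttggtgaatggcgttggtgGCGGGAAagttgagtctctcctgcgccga
The TOP3A promoter is chr17:18314945-18315244 on the minus strand, with a match that begins at -116 from the start, and that of FANCG is chr9:35079893-35080192 on the minus strand, with a match at -84. The XRCC2 promoter, chr7:152676092-152676391 on the minus strand, holds its match at 21 after the start, and the BLM promoter, chr15:90717096-90717395 on the plus strand, holds 2. The MUS81 window, chr11:65860183-65860482, and the CHEK1 window, chr11:125625979-125626278, both on the plus strand, hold none, as do the other windows listed for CHEK1. Both lie downstream of the gene's outermost start. For MUS81, with 1 window listed, the letters were not searched for at that start. Where the other CHEK1 windows lie is not given here. FANCG, higher in HCT116 than in KLE, and XRCC2, lower, both held the letters. The part of the letters in the line differences was not tested. The CCAAT box, CCAAT or ATTGG, occurred in 46.4% of the 28 promoters and 35.7% of all, and the letters TTTGAA or TTCAAA, found in mitotic promoters, in 14.3% and 15.4%.

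More of the genes passed between letter A and letters B and C than with any hairpin. Over the 5 KLE groups 16 of 33 genes passed, 10 higher and 6 lower on A, where 39.7% of all genes passed, 23.1% higher and 16.6% lower. The labels do not say what the letters stand for. The contrast of A against B and C was chosen after these same arrays had shown A apart. Its p-values therefore describe the size of that separation and are not those of a test set in advance. Raw array medians were 96.48 to 119.2 on A and 87.71 to 107.7 on B and C, and 14 of 36 E2F-driven replication genes were higher and 5 lower on A. The part of these values in the differences below was not tested.

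Fanconi genes led the higher side. FANCG read 8.26, 8.18, 8.53, 8.55 and 8.42 on array A with 059, 062, 543, 603 and shCTRL, against 7.65 to 8.04 on arrays B and C. FANCE read 8.35, 8.25, 8.64, 8.75 and 8.26 on A, against 7.81 to 8.03 on B and C. FANCI read 8.09, 7.95, 8.11, 8.18 and 8.10 on A, against 7.48 to 7.92 on B and C. For all 3 genes every A array lay above every B and C array. The differences were 0.55 for FANCG (SE 0.074, limma adjusted p = 0.00011), 0.52 for FANCE (SE 0.067, limma adjusted p = 8.2e-05) and 0.41 for FANCI (SE 0.047, limma adjusted p = 3e-05).

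TOP3A read 8.02, 7.78, 8.08, 8.69 and 8.0 on A in the same order of groups, against 7.45 to 8.15 on B and C. BRCA1 read 8.01, 7.85, 7.78, 7.98 and 7.99 on A, against 7.45 to 7.72 on B and C. BRCA1 did not overlap between letters and TOP3A did, and the differences were 0.35 for TOP3A (SE 0.085, limma adjusted p = 0.0056) and 0.32 for BRCA1 (SE 0.053, limma adjusted p = 5e-04). BARD1, RAD54L, ATM and CHEK1 were higher on A by 0.15 to 0.24. The tenth higher gene, FANCC, passed the filter on dim probes through letter A, with 3 A arrays and 1 other array above the array median, so its difference of 0.17 is close to background. CHEK1 lost its call in 8 of the 15 fits without 1 array. Of the 33 genes, 11 were higher and 5 lower on A in each of the 5 groups. The same count was not made over all genes, so these numbers do not set the 33 genes apart.

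MUS81 was the largest fall. It read 8.10, 8.21, 8.25, 8.18 and 8.25 on A, against 8.38 to 9.45 on B and C, so every A array lay below every other array, and the difference was -0.75 (SE 0.10, limma adjusted p = 0.00013). XRCC3 read 7.84, 8.06, 7.91, 7.96 and 7.92 on A, against 8.14 to 8.56 on B and C, again without overlap (-0.37, SE 0.059, limma adjusted p = 0.00039). RAD51C read 9.06, 8.90, 8.62, 8.69 and 8.94 on A, against 8.93 to 9.40 on B and C, and overlapped (-0.32, SE 0.088, limma adjusted p = 0.011). NBN read 8.32, 8.53, 8.58, 8.17 and 8.57 on A, against 8.46 to 8.83 on B and C (-0.24, limma adjusted p = 0.037), and RAD51B read 7.08, 7.18, 7.28, 7.04 and 7.30 on A, against 7.28 to 7.52 on B and C (-0.22, limma adjusted p = 0.0011). UBE2T also fell, by 0.22, and NBN and UBE2T each lost their call in 9 of the 15 fits without 1 array. Of these 6, RAD51C, XRCC3, NBN and UBE2T turned positive under median scaling and RAD51B as well without normalization, when the median of all genes shifted by 0.137 and 0.263, and MUS81 stayed negative, at -0.25 and -0.12, without passing. Other probes of RAD51C gave 0.10 and 0.12, of NBN 0.02 and of TOP3A -0.02.

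**Figure D5:**
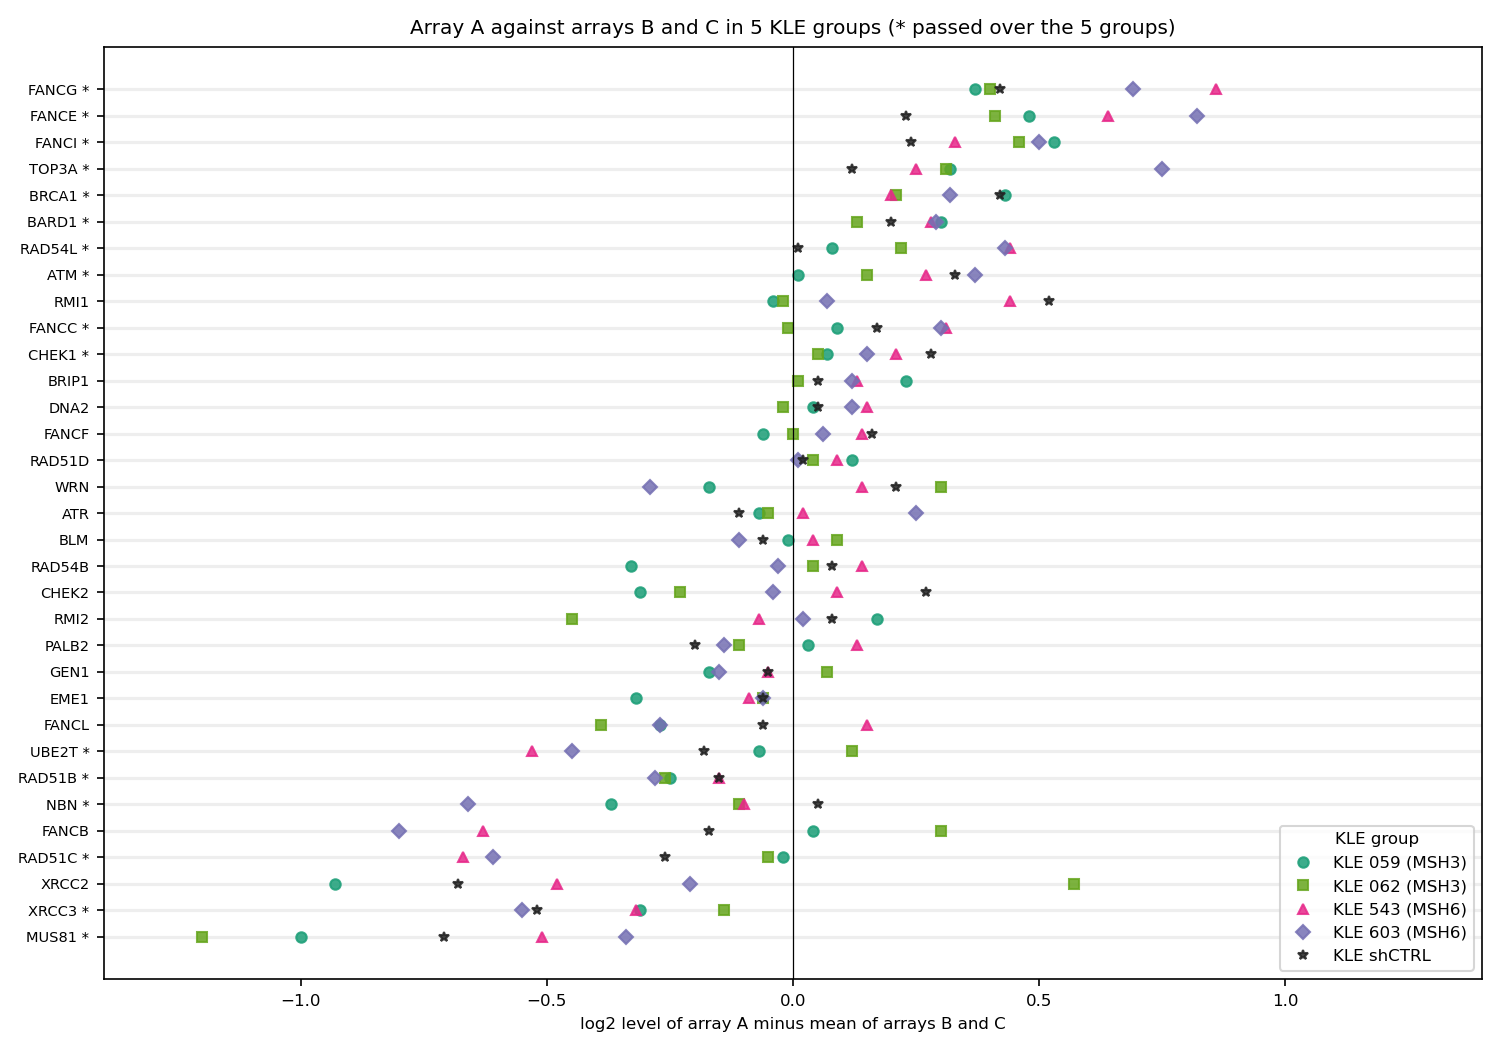
Log2 level on array A minus the mean of arrays B and C for 33 genes in each KLE group (symbols); stars beside names mark genes that passed over the 5 groups. FANCG, FANCE and FANCI lie right of 0 and MUS81 and XRCC3 left of 0 in all 5 groups, while XRCC2 lies at 0.57 with 062 and between -0.93 and -0.21 in the others.

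XRCC2 did not pass over the letters, at -0.35. It read 9.83, 10.67 and 10.86 with 059, 10.68, 10.07 and 10.16 with 062, 9.99, 10.41 and 10.54 with 543 and 10.20, 10.08 and 10.75 with 603, in the order A, B, C. Array A was the lowest of its group with 059 and 543, as with shCTRL, and the highest with 062. In the letter comparison 32 of 57 other genes of the pathways passed, where 39.7% of all genes did. The damage-signalling histone H2AX (-1.31) and FAAP20 (-0.86) were lower on A, as was TP53BP1 (-0.34), which restrains resection, and MDC1 (0.59) and RFWD3 (0.50) were higher.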

How the data were processed

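The RNA of each sample was read on 1 Illumina BeadChip. The deposited intensity values, on a linear scale, came from GenomeStudio, as named without a version by the submitters' processing notes. The values looked neither background-subtracted nor normalized, with lowest values of 66.27 to 89.47 and medians of 87.71 to 122.2 per array. Precision is limited by the number of arrays, 3 a group.

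After addition of an offset of 16, the intensities were put on the log2 scale and all 21 arrays were given the same distribution (quantile normalization). Of 47323 probes, 30113 are annotated to 1 gene, 8 to several and 17202 to none, and a RefSeq gene table changed 0 symbols. A probe had to exceed its array's median on 3 or more arrays of the fit, and the brightest such probe stood for its gene, so that CHEK2 and GEN1 have different probes for KLE and for the lines. Of the 33 probes used, 28 exceeded the median on every array and 5 only on some. The members and the lists of other genes were chosen with earlier results of these data known, and no list was tested as a set.

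Differences were tested with limma 3.58.1 in R 4.3.3 (lmFit and eBayes, two-sided), with p-values adjusted by Benjamini and Hochberg's method across every gene fitted and called under 0.05. One fit held the 15 KLE arrays with the letter as a block, and another the 9 control arrays with no block. Residuals of arrays of the same letter correlated with a median r of 0.69 for A, 0.53 for B and 0.57 for C. B correlated with C at a median r of 0.53, so B and C arrays were about as alike across letters as within them. Only letter A was set apart from the others. For the median gene, residuals had an SD of 0.0977 with the block and 0.127 without it. The scripts were tested on simulated data. Genes given array by array are those that passed between targets, the 5 largest rises and falls that passed between lines and between letters, and BRIP1 and XRCC2, the dimmest and brightest in KLE shCTRL. CHEK2 and FANCI with the hairpins, BRCA1 between lines, and the genes named from letters B and C alone, were singled out after their values were seen. Other genes of the pathways are named for the 5 lowest adjusted p. The alternatives were median scaling, no normalization, an offset of 1, normexp background correction with an offset of 50, no filter, the mean of a gene's probes, the other choice of block and leaving out each array.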

Additional observations from a re-analysis of the deposited data

Results flagged for a closer look

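TOP3A and MUS81 passed in a direct test of the MSH3 against the MSH6 hairpins. They were 2 of 33 genes, 6.06%, where 8.9% of all genes passed. Neither gene passed against shCTRL with any hairpin. TOP3A differed by -0.37 (MSH3 minus MSH6 hairpins, limma adjusted p = 0.026) and was lower with the MSH3 hairpins in 3 of 3 letters. MUS81 differed by 0.39 (limma adjusted p = 0.047) and was higher with them in 2 of 3 letters. Over all alternatives the adjusted p lay between 0.0023 and 0.25 for TOP3A and between 4.6e-05 and 0.68 for MUS81. Groups of 3 arrays are too small for a test of single outlying arrays.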

How the results depend on the processing

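Of 77 calls of single genes, 45 held under every alternative run, 32 lost the threshold in at least 1, and 5, all in the letter comparison, changed sign in at least 1. None of the 59 calls between lines changed sign. Of these 59, 21 lost the threshold in at least 1 alternative, and 6 lost it in a fit without 1 array. The counts of genes that passed moved as follows. Median scaling gave 2 for 059, where 1059 of 14872 genes passed, and 1 for MSH3 against MSH6 hairpins, where 167 did. Without normalization 059 gave 3, where 1535 of 14872 genes passed, and MSH3 against MSH6 hairpins gave 0, where 59 did. In that setting MCF10A against KLE gave 9 (4 higher, 5 lower), where 4053 of 14270 genes passed. HCT116 against MCF10A gave 11, all higher, where 2920 did. Normexp background correction gave 1 for 543, where 170 of 14872 genes passed. No filter on dim probes gave 1 for MSH3 against MSH6 hairpins, where 1218 of 20046 genes passed. With letters B and C alone the counts were 4 for 059, 8 for 062, 1 for 543, 4 for 603, 7 for MSH3 against MSH6 hairpins and 4 for 062 against 059. The cause was not tested in any of these.

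With no replicate block 0 genes passed between MSH3 and MSH6 hairpins, and 0 with each hairpin, as in the paired fit, while the calls over all genes fell to 59 for 059, 51 for 062, 48 for 543, 323 for 603 and 309 between targets, against 215, 193, 157, 1017 and 1323. With the replicate block the lines gave 22 for HCT116 against KLE, 18 for MCF10A against KLE and 17 for HCT116 against MCF10A. Over all 14270 genes 7404, 7106 and 5534 then passed.

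Leaving out 1 array at a time gave 0 for 059, 0 to 2 for 062, 0 to 1 for 543, 0 to 1 for 603, 0 to 2 for MSH3 against MSH6 hairpins, 0 for 062 against 059, 0 to 1 for 603 against 543, 22 to 25 for HCT116 against KLE, 17 to 20 for MCF10A against KLE, 15 to 17 for HCT116 against MCF10A and 11 to 20 for the letters. The count was 2 for 062 without shCTRL A or 062 A, 1 for 543 without shCTRL A, and 1 for 603 and for 603 against 543 without 603 B. Between targets it was 0 without 059 C, 062 C, 543 B, 543 C or 603 C, and 1 without 059 B, 062 B or 603 B. Without 059 A it was 2, MUS81 and FANCI (-0.20, limma adjusted p = 0.041), and TOP3A did not pass. Such fits also lost the calls of FANCC and RAD54L between letters (2 fits each) and of UBE2T between HCT116 and KLE (1 fit). Shares over all genes are not given for these fits, so the counts do not set the recombination and Fanconi genes apart. With all arrays kept, 54.4% of all genes passed for HCT116 against KLE and 52.7% for MCF10A against KLE. The share was 41.5% for HCT116 against MCF10A and 39.7% for the letters.

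In the letter comparison the sign turned under median scaling for RAD51C (0.23), XRCC3 (0.04), NBN (0.27) and UBE2T (0.39), and without normalization for RAD51B (0.06), RAD51C (0.36), XRCC3 (0.16), NBN (0.39) and UBE2T (0.52). All 20 and 22 genes that then passed were higher on A, where 7820 and 8613 of 14872 genes passed in either direction. Median scaling shifted the median of all genes by -0.126 for 059, and no normalization by -0.286 for 059, -0.208 for 603, 0.187 for 062 against 059 and -0.112 for 603 against 543. Signal over background limits BRIP1, ATR, RAD51B and the other probes near the array median.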
